A study of Mus musculus with 49 samples.

Results

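Irf4, Prdm1 and Xbp1 encode 3 transcription factors, IRF4, Blimp-1 and XBP1, that are best known for turning a mature B cell into an antibody-secreting plasma cell. Their levels were followed here across mouse B cells at earlier stages. In these the surface receptor IgM was absent, lost, present or engaged, or tyrosine kinases were inhibited. Each gene was represented by 1 probe set on the arrays, and the same 3 probe sets were present on both array types (92737_at for Irf4, 92904_at for Prdm1 and 94821_at for Xbp1). They were chosen by name, as the probe sets that match 1 of these genes and no other. They made up 3 of 9977 probe sets on the U74Av2 arrays, which stood for 7417 genes matched alone, and 3 of 12588 on the U74A arrays, and all 3 were kept in every main test.

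IRF4 is a member of the interferon regulatory factor family that binds DNA together with PU.1 or Spi-B in B cells. At the pre-B stage it acts with IRF8 to end proliferation and open the light chain loci for rearrangement, and at high levels later it switches on Prdm1. Blimp-1, the product of Prdm1, is a repressor that shuts off genes of the B cell program, among them Pax5, Ciita, Spib and Myc. XBP1 is spliced into an active form by IRE1 when the endoplasmic reticulum is loaded, and it drives the genes for protein folding and secretion. The probe sets measured total RNA of each gene, so spliced and unspliced Xbp1 were not told apart.

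The series holds 49 arrays of sorted mouse B lineage cells from animals a few weeks old, 37 of type U74Av2 in 10 groups and 12 of type U74A in 4 groups. Cre-Mlo cells (4 arrays) carried the floxed B1-8 heavy chain, the 3-83κ light chain and Mx-Cre, a Cre recombinase under an interferon-inducible promoter. They were bone marrow cells expanded in IL-7, cultured for another 2 d with IFNαβ and no IL-7, and sorted for low IgM. Cre-Mhi cells (4) were the IgM-high cells of the same kind of culture, and Ctrl-Mhi cells (4) were IgM-high cells with both receptor alleles but no Mx-Cre, given the same interferon. B6-Mneg cells (3) were B220+ IgM-negative cells from IL-7 cultures of C57BL/6 marrow, with no receptor transgene and no interferon. GFPpos cells (3) came from HEL-Ig mice, which have a transgenic receptor for hen egg lysozyme and a Rag2-GFP reporter, and were expanded in IL-7, then cultured 1 d in herbimycin A, a tyrosine kinase inhibitor, then sorted as IgM+ GFP+. GFPneg cells (3) were the IgM+ GFP-negative cells of cultures without the drug, so drug and gate changed together. FxE HA cells (6) were immature B cells of mice with a B cell-restricted Bcl-2 transgene held in herbimycin A for 1 to 2 d, and FxE Ctrl cells (4) were the same in medium. FxD cells (3) were fresh Balb/c pre-B cells (B220+ CD43- IgM-) and FxE cells (3) fresh immature B cells (B220+ IgM+ IgD-). Their RNA was amplified in 2 rounds. On U74A arrays, HEL 48h cells (3) were HEL-Ig cells grown 5 d in 16 ng/ml IL-7, then kept 48 h with 1 µg/ml lysozyme and sorted as IgM-high GFP+, and Ctrl 48h cells (3) were grown the same way, kept 48 h without it and sorted as IgM-high GFP-, so antigen and gate changed together. HEL-Mhi cells (3) were sorted as IgM-high from marrow of HEL-Ig mice that had been expanded 5 d in IL-7. HEL-Mlo cells (3), which carry the same HEL label, were IgM-low cells grown 5 d in 16 ng/ml IL-7.

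Array medians lay between 346 and 544 signal units on the U74Av2 arrays and between 512 and 596 on the U74A arrays, apart from HEL-Mlo, where they were 21.6 to 26.2. HEL-Mlo was therefore described only by rank within an array. Replicate arrays correlated at r = 0.910 to 0.977 over all probe sets, and no 2 were identical. B cell markers (6 of 8 measured) summed to 133650 to 195961 units on the U74Av2 arrays of IL-7 expanded cells and to 37383 to 59997 units on FxD, FxE, FxE HA and FxE Ctrl arrays. On those 16 arrays the 10 myeloid markers summed to 28607 to 275532 units, against 1848 to 4278 units on the other 21. T cell markers (6 of 7 measured) and NK cell markers (3 of 4) never summed above 1858 and 853 units on these 37 arrays. Erythroid markers (4 of 5) summed to 56441 to 156329 units on FxD and FxE arrays and to at most 9602 on the others. The plasma cell marker Jchain averaged 1797 units in FxE, 1346 in FxE Ctrl, 1030 in FxE HA and 452 in FxD cells. In the other U74Av2 groups it averaged 193 to 307 units. Sdc1 and Tnfrsf17 averaged at most 426 and 345 units on these arrays, both in FxD cells. The part of these signals in the results was not tested.

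The promoters of Irf4 and Prdm1 are printed because these 2 genes were both higher after receptor deletion, in windows that reach from 250 bases before to 50 bases after the RefSeq start. In the GRCm38.p6 build, the Irf4 window is chr13:30748983-30749282 on the plus strand, before a gene that spans positions 30749233 to 30766981 of chromosome 13. The Prdm1 window is chr10:44458699-44458998 on the minus strand, inside the gene's full span of 44437174 to 44528558 on chromosome 10. Xbp1 spans 5520641 to 5525993 on chromosome 11. Capitals mark matches on either strand to 9 short motifs, and no 2 matches overlap.
Irf4 promoter: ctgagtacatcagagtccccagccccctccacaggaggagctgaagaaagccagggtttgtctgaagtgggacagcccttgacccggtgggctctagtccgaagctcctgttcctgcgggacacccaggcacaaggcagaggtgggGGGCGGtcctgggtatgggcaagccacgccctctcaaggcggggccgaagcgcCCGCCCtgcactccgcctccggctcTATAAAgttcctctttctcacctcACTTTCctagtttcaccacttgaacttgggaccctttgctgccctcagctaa
Prdm1 promoter: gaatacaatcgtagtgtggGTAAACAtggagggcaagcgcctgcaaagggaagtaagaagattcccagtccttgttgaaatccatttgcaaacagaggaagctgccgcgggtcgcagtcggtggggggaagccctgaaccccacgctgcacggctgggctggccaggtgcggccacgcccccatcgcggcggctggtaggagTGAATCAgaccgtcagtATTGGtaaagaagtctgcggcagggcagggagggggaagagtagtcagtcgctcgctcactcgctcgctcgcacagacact
The motifs were TATAAA (the TATA box, in 13.6% of 32851 mouse promoter windows), GGGCGG (the GC box, 35.7%), CCAAT (37.4%), GAAANNGAA (an interferon response element, 8.56%), TGANTCA (AP-1, 7.81%), GTAAACA (forkhead factors, 3.65%), GAAAGT (a core that Blimp-1 and IRFs share, 14.3%), ACGTGG (an unfolded protein response core, 8.31%) and GGGANTTCC (NF-kB, 1.68%). The Irf4 window held a TATA box at position -26, GC boxes at -104 and -51, and the GAAAGT core on its minus strand at -2, counted from the start at 1 with no 0. The Prdm1 window held the forkhead letters at -231, the AP-1 letters at -48 and CCAAT on its minus strand at -31. The Xbp1 window held none of the 9. These matches are descriptions of the letters only.

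Across the 10 groups of the U74Av2 table, Irf4 fell into an upper and a lower set of levels. Its highest mean was 26366 ± 2859 units in Cre-Mlo cells (SD, n = 4), then 23803 ± 2386 in GFPpos cells (n = 3), 20439 ± 2642 in FxD cells (n = 3) and 17096 ± 1629 in B6-Mneg cells (n = 3). These 4 groups overlapped each with its neighbour. Ctrl-Mhi cells followed at 8876 ± 1311 (n = 4), with a gap that no array crossed, and then Cre-Mhi at 7510 ± 2122 (n = 4), FxE Ctrl at 7308 ± 1796 (n = 4), FxE HA at 7159 ± 846 (n = 6), GFPneg at 5833 ± 656 (n = 3) and FxE at 5751 ± 495 (n = 3). Each of these lower neighbours overlapped. The upper set held the IgM-low and IgM-negative sorts and the IgM+ GFP+ sort, the lower set the IgM-high sorts, the IgM+ GFP-negative sort and the other IgM+ immature cells.

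Prdm1 had another order, with a 24.3-fold range between its highest and lowest group means. FxE HA cells led with 1709 ± 499 units (n = 6) and overlapped no other group. They were followed by GFPpos at 657 ± 338 (n = 3), Cre-Mlo at 551 ± 80.6 (n = 4) and FxE Ctrl at 471 ± 125 (n = 4), which overlapped in turn. Below a second gap came B6-Mneg at 236 ± 84.4 (n = 3), Cre-Mhi at 169 ± 8.76 (n = 4), FxD at 148 ± 23.7 (n = 3), Ctrl-Mhi at 116 ± 29.5 (n = 4), GFPneg at 101 ± 36.5 (n = 3) and FxE at 70.2 ± 56.9 (n = 3), each overlapping the next. On its arrays the Prdm1 probe set lay between the 67.4 and 81.1 percentile in FxE HA cells and between the 0.722 and 36.7 percentile in FxD and FxE cells. Detection calls were not used here, so how far the lowest of these signals stood above background is not known.

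Xbp1 varied least, 3.14-fold between group means against 4.58-fold for Irf4. Its means ran from 3562 ± 1130 units in FxE cells (n = 3) through B6-Mneg at 3393 ± 531, FxD at 3232 ± 863, FxE HA at 3081 ± 1303, FxE Ctrl at 2902 ± 561, GFPneg at 2559 ± 440, Ctrl-Mhi at 2199 ± 304 and Cre-Mhi at 2145 ± 282 to Cre-Mlo at 1991 ± 382, with overlap at every step. Only GFPpos stood apart, at 1133 ± 68.2 (n = 3), below every other array of the table.

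**Figure D1:**
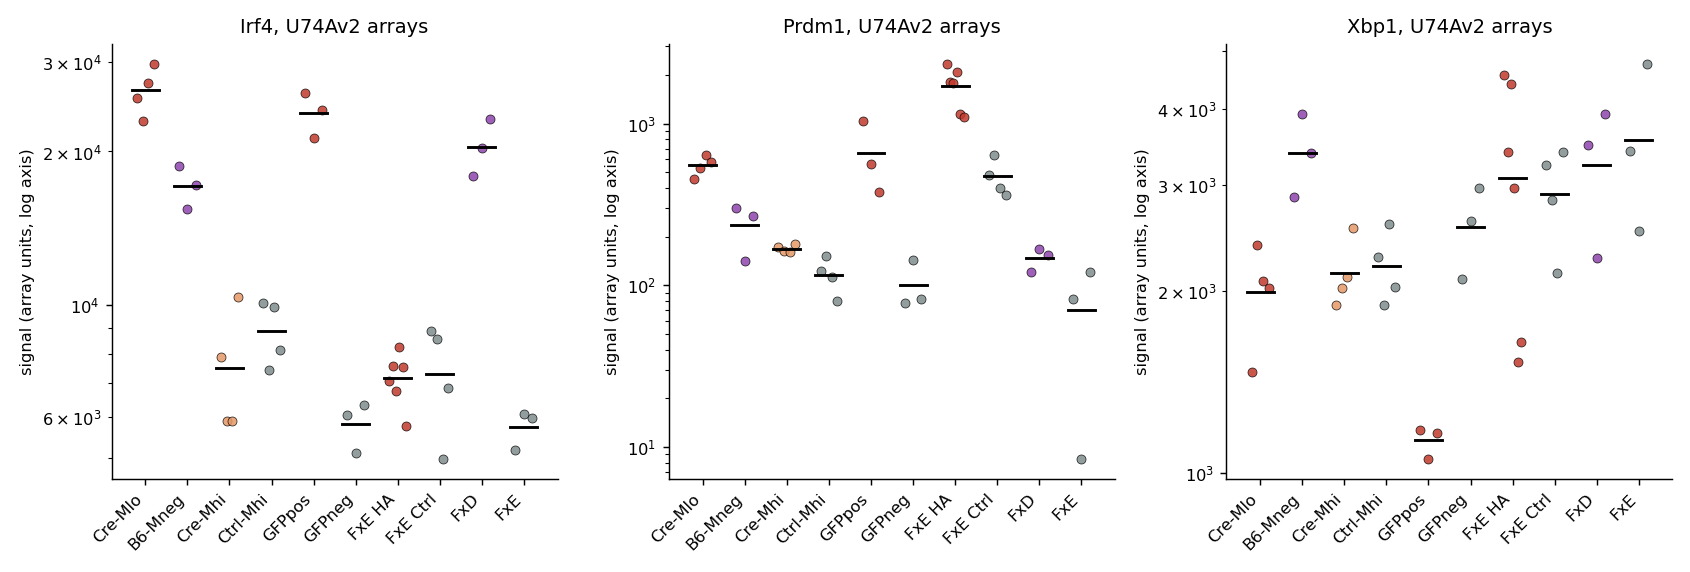
Signal of each U74Av2 array (points, array units on a log axis) and the group mean (bar) for the 3 genes in 10 groups. Irf4 splits the groups into a set with no array under 15438 units and a set with none above 10366 units, Prdm1 is highest in FxE HA cells, and Xbp1 is lowest in GFPpos cells.

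The first question was what an immature B cell does when surface IgM is lost. Irf4 and Prdm1 were both higher in Cre-Mlo than in Ctrl-Mhi cells, while Xbp1 was not called different. Irf4 signals were 25451, 22989, 27271 and 29753 units in Cre-Mlo cells, against 10069, 7419, 9897 and 8121 units in Ctrl-Mhi cells. Every Cre-Mlo array lay above every Ctrl-Mhi array, and the log2 difference was 1.58 (SE 0.20, adjusted p = 5.74e-04 by limma). Prdm1 signals were 452, 529, 642 and 582 units in Cre-Mlo cells, against 122, 152, 112 and 80.0 units in Ctrl-Mhi cells. These did not overlap either, with a log2 difference of 2.27 (SE 0.19, limma adjusted p = 3.34e-05). Xbp1 signals were 1470, 2388, 2080 and 2027 units in Cre-Mlo cells, against 2280, 1894, 2588 and 2033 units in Ctrl-Mhi cells. The 2 groups overlapped, and the log2 difference of -0.15 had a 95% interval of -0.53 to 0.23 (limma adjusted p = 0.686). Thus 2 of the 3 genes were called, where 8.33% of all probe sets were.

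The IgM-high cells of the same Mx-Cre cultures gave a second comparison for the same Cre-Mlo arrays. Irf4 in Cre-Mhi cells was 7884, 5898, 5892 and 10366 units, and Prdm1 was 172, 163, 160 and 180 units. All lay under the Cre-Mlo arrays, with log2 differences of 1.85 for Irf4 (SE 0.20, limma adjusted p = 3.25e-04) and 1.70 for Prdm1 (SE 0.19, limma adjusted p = 3.87e-04). Xbp1, at 1897, 2026, 2110 and 2548 units in Cre-Mhi cells, overlapped Cre-Mlo (log2 difference -0.12, limma adjusted p = 0.795). Again 2 of 3 genes were called, against 6.08% of all probe sets.

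Cre-Mhi and Ctrl-Mhi cells, which both had high IgM, differed little. Irf4 had a log2 difference of -0.27 (95% interval -0.70 to 0.16, limma adjusted p = 0.808) and Xbp1 of -0.03 (limma adjusted p = 0.984). For Prdm1, every Cre-Mhi array lay above every Ctrl-Mhi array, by 0.57 on the log2 scale (SE 0.19, unadjusted p = 0.0114 by limma), but the value did not pass after adjustment (limma adjusted p = 0.618). None of the 3 was called, and 0.0200% of all probe sets were.

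Of the 10 measured genes that Blimp-1 is known to hold down, 6 were lower in Cre-Mlo than in Ctrl-Mhi cells and none was higher, with a median log2 difference of -1.03 where that of all probe sets was -0.04 and 8.33% of all probe sets were called. Cd22, an inhibitory receptor, averaged 1309 units in Cre-Mlo cells and 5610 in Ctrl-Mhi cells (log2 difference -2.10, limma adjusted p = 2.55e-05). Cxcr5, the receptor that leads B cells to follicles, averaged 257 units in Cre-Mlo and 1594 in Ctrl-Mhi cells (log2 difference -2.71, limma adjusted p = 4.02e-04), and Fcer2a, which encodes CD23, 183 units in Cre-Mlo and 1045 in Ctrl-Mhi cells (log2 difference -2.65, limma adjusted p = 0.00111). Pou2f2, the gene of Oct-2, averaged 1042 units in Cre-Mlo and 2931 in Ctrl-Mhi cells (log2 difference -1.49, limma adjusted p = 0.00138). Pax5, the central B cell identity factor and a direct Blimp-1 target, was not called, at 10858 units in Cre-Mlo and 8599 in Ctrl-Mhi cells (log2 difference 0.32, limma adjusted p = 0.352). Against Cre-Mhi cells 8 of the 10 were lower, where 6.08% of all probe sets were called. The study had already named Prdm1 (as BLIMP) as higher, and Cd22, Cxcr5, Fcer2a and Pou2f2 as lower, in Cre-Mlo cells on these arrays. This list and those used below were chosen with earlier results of these data known, so their counts are descriptions. Some genes, such as Bcl6 and Irf8, stand in several lists, so the counts of different lists are not separate results.

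Few genes on the secretory side of the network were called, a share near the 8.33% of all probe sets for the plasma cell and XBP1 lists. Of 11 plasma cell genes measured, none was higher and 1 was lower, Fkbp11, a chaperone gene of secretory cells, at 68.8 units in Cre-Mlo and 186 in Ctrl-Mhi cells (log2 difference -1.33, limma adjusted p = 0.0245). Sdc1, which encodes the plasma cell antigen CD138, averaged 378 units in Cre-Mlo and 237 in Ctrl-Mhi cells and was not called (limma adjusted p = 0.387), and Jchain averaged 222 units in Cre-Mlo and 307 in Ctrl-Mhi cells (limma adjusted p = 0.691). Of 31 targets of XBP1 and endoplasmic reticulum stress, 1 was higher and 2 were lower, with a median log2 difference of -0.10. The higher one was Herpud1, a ubiquitin-like protein gene of the endoplasmic reticulum, at 10619 units in Cre-Mlo and 3816 in Ctrl-Mhi cells (log2 difference 1.52, limma adjusted p = 0.00155). Hspa5, the main chaperone of that compartment, averaged 7028 units in Cre-Mlo and 8362 in Ctrl-Mhi cells (limma adjusted p = 0.411). Of the genes of the other arms of this stress response, 1 of 6 was higher and 1 lower.

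Among partners of IRF4 and genes of the light chain step, 5 of 10 were higher and 2 lower in Cre-Mlo than in Ctrl-Mhi cells, with a median log2 difference of 0.60, where 8.33% of all probe sets were called. Rag1, a recombinase subunit, averaged 37967 units in Cre-Mlo cells and 2330 in Ctrl-Mhi cells (log2 difference 4.06, limma adjusted p = 1.88e-06), and Rag2, the other subunit, 3346 units in Cre-Mlo and 463 in Ctrl-Mhi cells (log2 difference 2.86, limma adjusted p = 8.5e-05). Cxcr4, a homing receptor that IRF4 raises in pre-B cells, averaged 12048 units in Cre-Mlo and 5175 in Ctrl-Mhi cells (log2 difference 1.25, limma adjusted p = 0.00105). The 2 lower genes were Spib, which encodes the IRF4 partner Spi-B (log2 difference -0.66, limma adjusted p = 0.00195), and Irf8 (log2 difference -0.64, limma adjusted p = 0.00843). In the interferon regulatory factor family Irf4 was the single higher gene and Irf8 the single lower one of 7. Irf7, an interferon-induced gene, averaged 3898 units in Cre-Mlo and 3940 in Ctrl-Mhi cells. Among 13 NF-kB subunits and targets, 4 were higher and 1 lower, with Nfkbia, the feedback inhibitor, at 25925 units in Cre-Mlo and 10920 in Ctrl-Mhi cells (log2 difference 1.25, limma adjusted p = 2.28e-04).

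The normal step at which surface IgM appears gave another comparison, of IgM-negative FxD cells with IgM+ FxE cells. In fresh marrow Irf4 was 17863, 20312 and 23142 units in FxD pre-B cells, against 5184, 6098 and 5970 units in FxE immature cells. The groups were far apart, with a log2 difference of 1.83 (SE 0.23, limma adjusted p = 0.0191), but leaving out any 1 of the 6 arrays took the adjusted p to between 0.0540 and 0.111. Prdm1 was 121, 168 and 154 units in FxD cells, against 82.0, 8.4 and 120 units in FxE cells. The groups did not overlap, but the log2 difference of 1.33 (limma adjusted p = 0.469) rested largely on the FxE array under the floor of 20 units, and was 0.56 without it. Xbp1 was 3492, 2270 and 3936 units in FxD cells, against 3411, 2514 and 4760 units in FxE cells, which overlapped (log2 difference -0.13, limma adjusted p = 0.924). Thus 1 of 3 genes was called, against 3.00% of all probe sets. Myeloid markers summed to 36549 to 77193 units in FxD and 66837 to 275532 units in FxE, and erythroid markers (4 of 5 measured) to 56441 to 119295 units in FxD and 114972 to 156329 units in FxE. Their part in the result was not tested.

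In FxD cells, set against FxE cells, 3 of the 10 genes held down by Blimp-1 were lower, namely Cd22, Cxcr5 and Fcer2a, where 3.00% of all probe sets were called. Cxcr5 averaged 127 units in FxD and 2604 in FxE cells (log2 difference -4.83, limma adjusted p = 0.0237). Among IRF4 partners and light chain genes, 4 were higher, namely Rag1, Rag2 and the surrogate light chain genes Vpreb1 and Igll1. Herpud1 was the 1 called gene among the 31 XBP1 targets, a share near that of all probe sets, at 13409 units in FxD and 4894 in FxE cells (log2 difference 1.47, limma adjusted p = 0.0365).

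The cultured IgM-negative B6-Mneg cells had Irf4 at 18695, 15438 and 17156 units, all above the Ctrl-Mhi arrays given above (log2 difference 0.95, SE 0.17, limma adjusted p = 0.0137). Without the third B6-Mneg array the adjusted p was 0.0507. Prdm1 was 301, 140 and 267 units in B6-Mneg cells and overlapped Ctrl-Mhi (log2 difference 0.98, limma adjusted p = 0.102). Xbp1 was 2866, 3928 and 3385 units in B6-Mneg cells, above every Ctrl-Mhi array, with a log2 difference of 0.62 that did not pass (limma adjusted p = 0.0663). Thus 1 of 3 genes was called, against 14.2% of all probe sets. The genotype, IL-7 and interferon differed along with IgM here, and these cannot be told apart. Of the genes held down by Blimp-1, 6 of 10 were lower and 1, Myc, was higher in B6-Mneg cells. Among the factors that hold back plasma cells, 6 of 9 were lower, with Bcl6 at 546 units in B6-Mneg and 2096 in Ctrl-Mhi cells (log2 difference -1.98, limma adjusted p = 0.00236).

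Set directly against B6-Mneg cells, Cre-Mlo cells differed in all 3 genes, where 16.8% of all probe sets were called. Genotype, IL-7 and interferon also differed between these groups, and cannot be told apart. Irf4 was higher by 0.62 on the log2 scale (SE 0.14, limma adjusted p = 0.0263) and Prdm1 by 1.29 (SE 0.29, limma adjusted p = 0.0277). Xbp1 was lower, with a log2 difference of -0.78 (SE 0.20, limma adjusted p = 0.0461). None of the 3 pairs of groups overlapped, but the calls were close to the threshold. With each of the 7 arrays left out in turn, Irf4 stayed called in 2 cases (without Cre-Mlo replicate 2 or B6-Mneg replicate 1), Prdm1 in 3 (without Cre-Mlo replicate 1, or B6-Mneg replicate 1 or 2) and Xbp1 in none. Of the 10 genes held down by Blimp-1, 3 were higher and 3 lower, with a median log2 difference of 0.29 where that of all probe sets was 0.09. Myc averaged 98.8 units in Cre-Mlo cells and 762 in B6-Mneg cells (log2 difference -3.01, limma adjusted p = 0.00284), while Bcl6 averaged 1699 units in Cre-Mlo and 546 in B6-Mneg cells (log2 difference 1.67, limma adjusted p = 0.00486). Of 31 XBP1 and stress targets, 2 were higher and 5 lower.

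**Figure D2:**
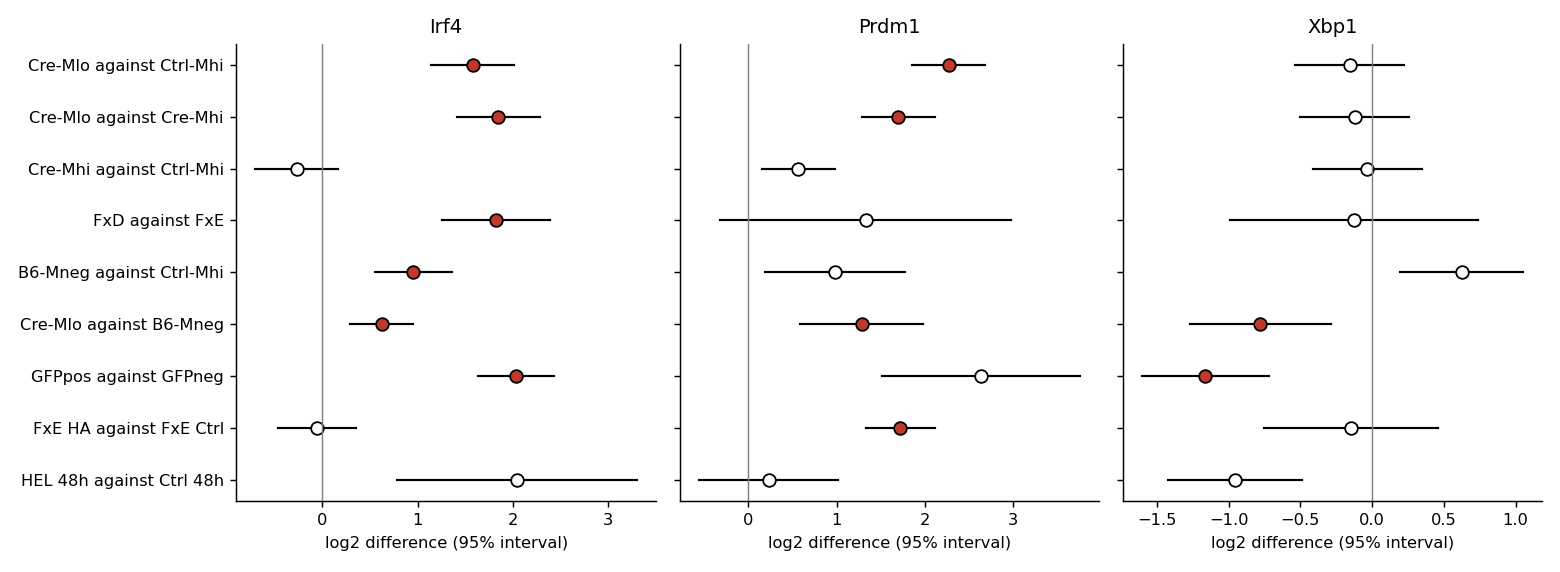
Log2 difference (points) with 95% intervals (lines) of the 3 genes in 9 comparisons, red where the limma adjusted p was under 0.05 and white otherwise. Irf4 was called in 6 comparisons, Prdm1 in 4 and Xbp1 in 2, and both Xbp1 calls were lower.

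Herbimycin A was used to ask what happens when tyrosine kinases are inhibited and IgM stays on the surface. Receptor signalling itself was not measured on these arrays. In HEL-Ig cells Irf4 was 26019, 21277 and 24113 units in GFPpos cells, against 6055, 5095 and 6349 units in GFPneg cells. The groups were 2.03 apart on the log2 scale (SE 0.16, limma adjusted p = 0.0185). Prdm1 was 1032, 564 and 375 units in GFPpos cells, against 77.3, 143 and 82.5 units in GFPneg cells. No array overlapped, and the log2 difference of 2.63 (SE 0.45) narrowly missed the threshold (limma adjusted p = 0.0517). Xbp1 was 1179, 1055 and 1165 units in GFPpos cells, against 2094, 2614 and 2968 units in GFPneg cells. It was lower in the drug-treated GFP+ cells on every array, with a log2 difference of -1.16 (SE 0.18, limma adjusted p = 0.0428). Thus 2 of 3 genes were called, against 2.59% of all probe sets. Without GFPpos replicate 1 the Irf4 call held, and without any other 1 array the adjusted p was 0.0690 to 0.0914, while for Xbp1 it was 0.0822 to 0.146 without any 1 array.

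Of the 10 genes held down by Blimp-1, 1 was lower in GFPpos than in GFPneg cells, where 2.59% of all probe sets were called. It was Ciita, the master regulator of MHC class II, at 942 units in GFPpos and 2192 in GFPneg cells (log2 difference -1.24, limma adjusted p = 0.0428). Among 31 XBP1 and stress targets 2 were called. Edem1, which sends misfolded proteins for degradation, was lower at 189 units in GFPpos and 571 in GFPneg cells (log2 difference -1.64, limma adjusted p = 0.0428), and Herpud1 was higher at 6199 units in GFPpos and 2447 in GFPneg cells (log2 difference 1.35, limma adjusted p = 0.0407). Hspa5 averaged 4852 units in GFPpos and 8708 in GFPneg cells and was not called (limma adjusted p = 0.0672). Rag1 and Rag2 were the 2 called genes of the light chain list, both higher, and the GFP gate itself reads Rag2.

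The herbimycin A and the receptor deletion differences were compared with each other in 1 fit over all U74Av2 arrays. None of the 3 genes was called, where 0.461% of all probe sets were. The GFPpos difference minus the Cre-Mlo difference was 0.45 for Irf4 (95% interval -0.12 to 1.03, limma adjusted p = 0.807), 0.37 for Prdm1 (95% interval -0.82 to 1.55, limma adjusted p = 0.990) and -1.01 for Xbp1 (95% interval -1.88 to -0.14, limma adjusted p = 0.465). In the same fit, the Cre-Mlo difference minus the FxD difference was -0.25 for Irf4 (limma adjusted p = 0.777), 0.94 for Prdm1 (limma adjusted p = 0.497) and -0.03 for Xbp1 (limma adjusted p = 0.991), with 3.86% of all probe sets called.

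The same drug was also given to immature B cells of Bcl-2 transgenic mice. Irf4 ranged from 5764 through a median of 7303 to 8244 units in FxE HA cells, against 8881, 8537, 4966 and 6848 units in FxE Ctrl cells. The groups overlapped, and with culture hours in the fit the log2 difference was -0.06 (95% interval -0.47 to 0.35, limma adjusted p = 0.922). Prdm1 ranged from 1098 through a median of 1796 to 2344 units in FxE HA cells, against 484, 642, 397 and 360 units in FxE Ctrl cells. All 6 drug-treated arrays lay above all 4 in medium, by 1.72 on the log2 scale (SE 0.17, limma adjusted p = 8.56e-04). Xbp1 ranged from 1525 through a median of 3181 to 4551 units in FxE HA cells, against 3236, 2831, 2141 and 3401 units in FxE Ctrl cells, and was not called (log2 difference -0.15, limma adjusted p = 0.857). Thus 1 of 3 genes was called, against 3.37% of all probe sets. Myeloid markers summed to 28607 to 136266 units in FxE HA and 29879 to 128406 units in FxE Ctrl cells, none of the 10 was called, and their part in these results was not tested.

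The Irf4 responses in the 2 herbimycin A experiments differed. The FxE HA difference minus the GFPpos difference was -2.03 (95% interval -2.58 to -1.48, limma adjusted p = 6.41e-05), in a fit without culture hours in which 1.92% of all probe sets were called. For Prdm1 it was -0.79 (95% interval -1.94 to 0.35, limma adjusted p = 0.651) and for Xbp1 1.15 (95% interval 0.31 to 1.98, limma adjusted p = 0.185). The experiments also differed in mouse strain, receptor, the Bcl-2 transgene, the IL-7 culture and the GFP gate, which cannot be told apart.

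Culture hours were taken from the study's figure legends. At 24 h Prdm1 was 2344, 1813, 1779 and 2074 units in FxE HA cells, against 484 and 642 units in FxE Ctrl cells. At 48 h it was 1143 and 1098 units in FxE HA cells, against 397 and 360 units in FxE Ctrl cells. Prdm1 was thus higher with the drug on every array at both times, and within the drug the later arrays were lower (log2 difference, 48 h minus 24 h, -0.83, limma adjusted p = 0.149). Xbp1 in FxE HA cells was 1525 and 1648 units at 48 h, against 4551, 3399, 4399 and 2963 units at 24 h. This split of the drug-treated arrays (log2 difference -1.25, SE 0.29, unadjusted p = 0.00224, limma adjusted p = 0.105) was not called, nor was Irf4 (log2 difference -0.17), where 0.401% of all probe sets were. In FxE Ctrl cells the same difference was -0.17 for Xbp1 and -0.56 for Prdm1, neither called, where 0.0601% of all probe sets were. The drug effect at 48 h minus that at 24 h was -1.08 for Xbp1 (unadjusted p = 0.0379, limma adjusted p = 0.999), and 0% of all probe sets were called in that contrast.

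**Figure D3:**
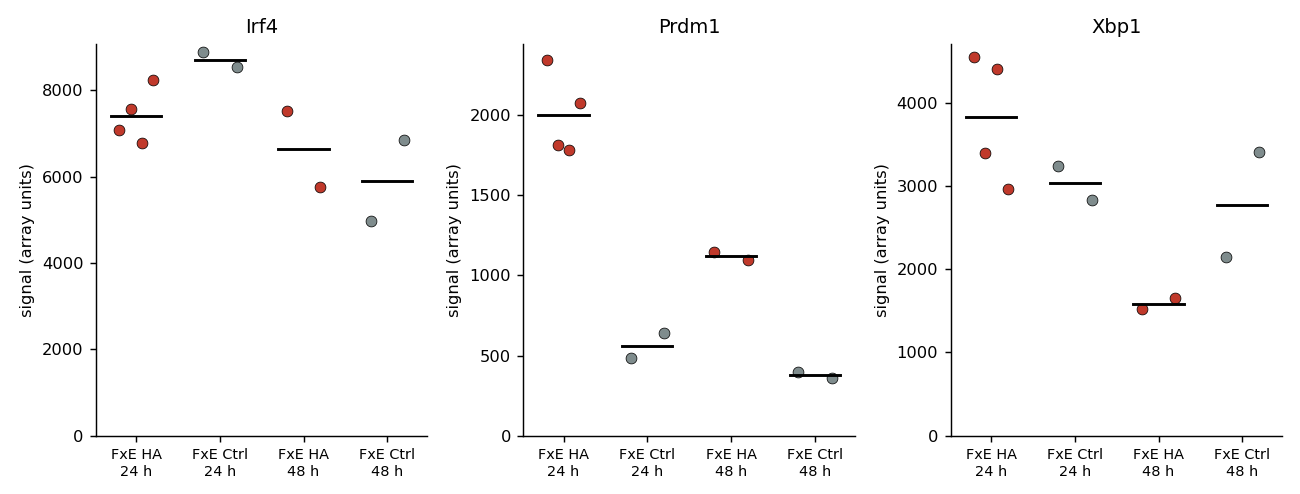
Signals (points, array units from 0) and group means (bars) in FxE HA and FxE Ctrl cells at 24 h and 48 h. Prdm1 is at least 1098 units on all 6 drug-treated arrays and at most 642 on all 4 in medium, and Xbp1 is at most 1648 units on both drug-treated arrays of 48 h.

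Of the 10 genes that Blimp-1 holds down, 6 were lower in FxE HA than in FxE Ctrl cells and none was higher, with a median log2 difference of -1.19 where that of all probe sets was 0.07 and 3.37% of all probe sets were called. Spib averaged 3819 units in FxE HA and 13987 in FxE Ctrl cells (log2 difference -2.14, limma adjusted p = 0.0113), Ciita 433 units in FxE HA and 882 in FxE Ctrl cells (log2 difference -1.06, limma adjusted p = 0.0116), Id3, an inhibitor of E proteins, 2113 units in FxE HA and 4895 in FxE Ctrl cells (log2 difference -1.33, limma adjusted p = 0.0130) and Bcl6 466 units in FxE HA and 1463 in FxE Ctrl cells (log2 difference -1.35, limma adjusted p = 0.0148). Pax5 averaged 2019 units in FxE HA and 2268 in FxE Ctrl cells (limma adjusted p = 0.982). Among the factors that hold back plasma cells, 5 of 9 were lower, Irf8 with the smallest p at 8363 units in FxE HA and 21832 in FxE Ctrl cells (log2 difference -1.52, limma adjusted p = 0.00139). Of 11 plasma cell genes, 1 was higher, Prdx4, a peroxidase of the secretory pathway, at 5431 units in FxE HA and 2793 in FxE Ctrl cells (log2 difference 0.98, limma adjusted p = 0.0144). Of 31 XBP1 targets, 1, Tram1, was lower, a share near that of all probe sets. Rag1 averaged 16408 units in FxE HA and 3114 in FxE Ctrl cells (log2 difference 2.47, limma adjusted p = 0.00282).

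**Figure D4:**
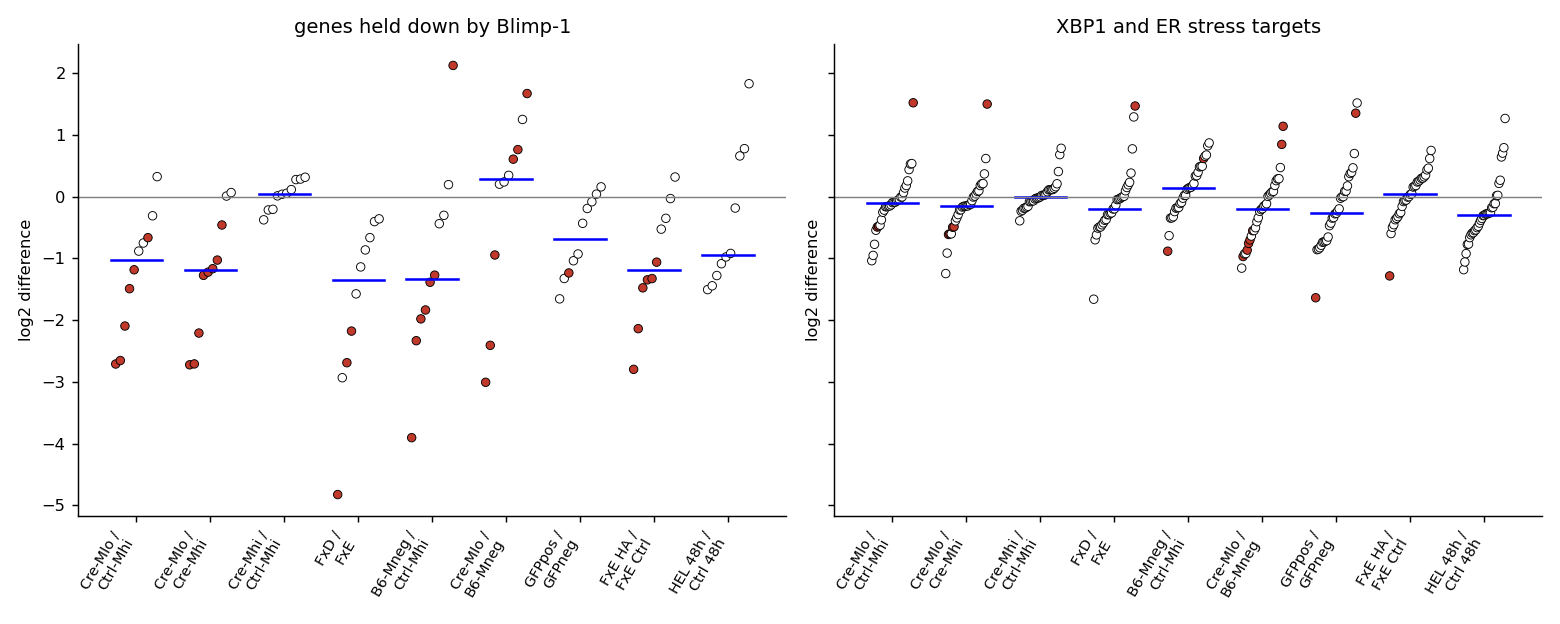
Log2 differences of the genes held down by Blimp-1 (left) and of the XBP1 and endoplasmic reticulum stress targets (right) in 9 comparisons. Each point is a gene, red where called, and blue lines are medians. The left list has medians of -1.36 (FxD against FxE) to 0.29 (Cre-Mlo against B6-Mneg), and the right list medians of -0.31 (HEL 48h against Ctrl 48h) to 0.14 (B6-Mneg against Ctrl-Mhi).

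Antigen was tested on the U74A arrays. Irf4 was 13895, 28862 and 33262 units in HEL 48h cells, against 3701, 4863 and 10615 units in Ctrl 48h cells. All 3 antigen arrays were higher, but the log2 difference of 2.04 had a wide error (SE 0.52, limma adjusted p = 0.232). Prdm1 was 302, 361 and 176 units in HEL 48h cells, against 264, 226 and 199 units in Ctrl 48h cells, and the groups overlapped (log2 difference 0.23, limma adjusted p = 0.800). Xbp1 was 2507, 2281 and 2420 units in HEL 48h cells, against 4366, 4472 and 5181 units in Ctrl 48h cells. It was lower on all 3 antigen arrays, with a log2 difference of -0.96 (SE 0.19, unadjusted p = 0.00232, limma adjusted p = 0.144). None of the 3 genes was called, and 0.230% of all probe sets were. The third array of each group was scanned on another day, and with the 2 arrays of the first day alone the log2 differences were 2.24 for Irf4, 0.44 for Prdm1 and -0.89 for Xbp1. No gene of the Blimp-1 (10 measured) or XBP1 (35 measured) list was called. The median log2 difference of the Blimp-1 list was -0.95, where that of all probe sets was -0.11. Among partners of IRF4 and genes of the light chain step, 2 of 10 were higher, where 0.230% of all probe sets were called. The GFP gate itself reads Rag2, a gene of that list. At an unadjusted p under 0.05, 1455 of the 12588 probe sets passed.

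**Figure D5:**
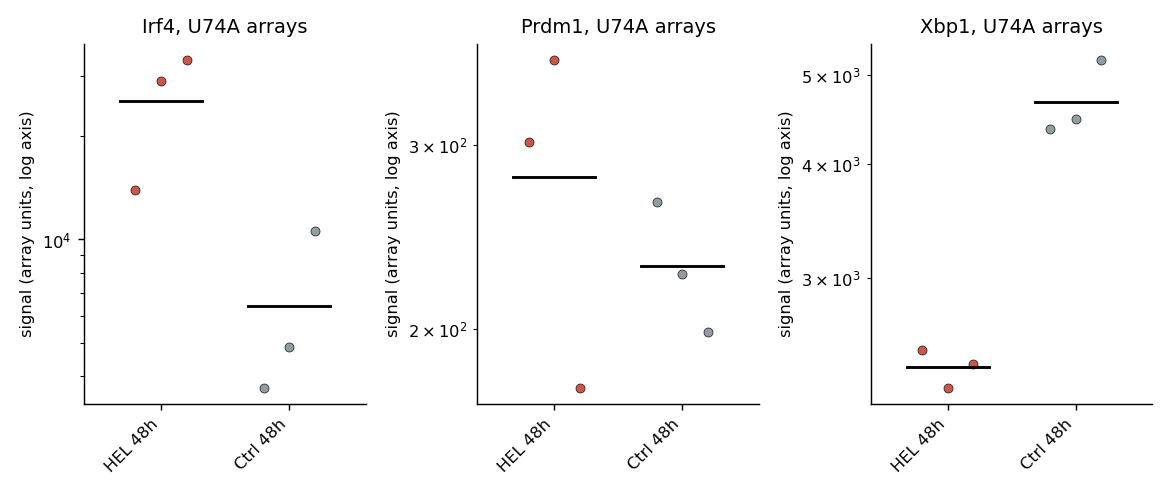
Signals (points, array units on a log axis) and group means (bars) in HEL 48h and Ctrl 48h cells on U74A arrays. Irf4 is higher and Xbp1 lower in all 3 HEL 48h arrays, and Prdm1 overlaps.

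HEL-Mlo and HEL-Mhi cells were compared by rank alone, with no test. Among the 9977 probe sets valued on all 12 U74A arrays, Irf4 lay at the 73.5, 84.1 and 90.3 percentile in HEL-Mlo cells and at the 65.4, 63.1 and 69.8 percentile in HEL-Mhi cells. Xbp1 lay at the 91.4, 92.0 and 90.9 percentile in HEL-Mlo cells, above the 83.5, 80.9 and 84.3 percentile in HEL-Mhi cells. Prdm1 ranks overlapped, at 6.85 to 29.4 in HEL-Mlo cells and 7.91 to 29.7 in HEL-Mhi cells. In HEL-Mhi cells the Irf4 signal averaged 1193 ± 177 units (SD, n = 3), against 6393 ± 3702 units in the IgM-high Ctrl 48h cells (n = 3). Its rank in Ctrl 48h cells was the 84.6 to 95.3 percentile, and this difference was not tested. How the HEL-Mlo values were scaled is not given in the sources used here.

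Over the 10 group means of the U74Av2 table, which share 1 normalization, the 3 genes did not track each other. Pearson's r was 0.319 between Irf4 and Prdm1, -0.428 between Irf4 and Xbp1 and -0.340 between Prdm1 and Xbp1. Among 5298 other probe sets of 1 gene with a mean of at least 500 units in some group, those most like Irf4 were Gpam (r = 0.968), a glycerolipid enzyme gene, Lhpp (0.957), Casp2 (0.951), a caspase gene, Rag2 (0.940) and Arntl (0.929), a core clock gene. Slc34a1 (-0.927), Slc35c2 (-0.900) and Grk6 (-0.897) were the most opposed. Most like Prdm1 were Gabarapl1 (0.967) and Ulk1 (0.931), both autophagy genes, with Klc1 (0.943), Cyhr1 (0.929) and Bud31 (0.926), and most opposed were Ezr (-0.976), which encodes ezrin, Prkca (-0.929) and Eed (-0.915). Most like Xbp1 were Rpia (0.929), Hdgf by 2 probe sets (0.918 and 0.908), Prps1 (0.907) and Timm8a1 (0.899), and most opposed were Srsf5 (-0.917), Satb1 (-0.893) and Taf8 (-0.876). These are descriptions over 10 points.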

How the data were processed

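Gene expression was measured with Affymetrix U74Av2 and U74A arrays. The deposited values are linear signal intensity values per probe set, which the authors computed with MAS5, scaling each array to a target of 1500 units after masking the U74A probe sets. For the HEL 48h and Ctrl 48h arrays the target and mask, and for HEL-Mlo arrays any scaling, are not given in the sources used here. The 2 tables were normalized separately and tested separately. Values were set to at least 20 units, log2 transformed and tested with limma 3.58.1 in R 4.3.3, with Benjamini-Hochberg adjustment over all probe sets of a table and calls at an adjusted p under 0.05. Only the groups of a comparison entered its fit, except that the 3 groups of the Mx-Cre experiment shared 1 fit, and the differences between effects used all U74Av2 arrays. Culture hours were a term for FxE HA against FxE Ctrl. Gene names came from the platform annotation, updated through Entrez IDs; 8724 U74Av2 probe sets had 1 gene, 346 several and 907 none, and for a gene of a list the brightest probe set was used.

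The members and the gene lists were chosen with earlier results of these data known. All 3 probe sets are described; from each list, counts are given with up to 4 called genes of the smallest adjusted p per comparison, and genes named beyond these (Pax5, Sdc1, Jchain, Hspa5, Irf7) were chosen after their values were seen. Likeness was Pearson's r over group means, with the 5 highest and 3 lowest named. The study describes replicates as separate sorts, in part called independent, and calls those of Ctrl-Mhi, Cre-Mhi and Cre-Mlo independent experiments. Whether replicates came from separate animals is not given in the sources used here. The p-values thus measure the spread between these samples, which may be technical, and the number of arrays limits precision. Same-numbered Cre-Mlo and Cre-Mhi arrays deviated together (r = 0.177 to 0.474 over 4 pairs), as did HEL 48h and Ctrl 48h (r = 0.111 to 0.239 over 3 pairs). These numbers were therefore taken to pair the samples, from the data, although the third HEL 48h and Ctrl 48h arrays also shared a scan day. The main fits were unpaired, and pairing entered only through the replicate block among the alternatives. The alternatives were a floor of 50 units, quantile normalization, a filter on probe sets under 200 units (which dropped Prdm1 in FxD against FxE), the replicate block, the methods' t-test, only the 2 groups compared, no term for hours, scan day as a block, leaving out each array, and, chosen after seeing the data, single culture times and the first scan day. The steps were tested on simulated data with 200 changed probe sets.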

Additional observations from a re-analysis of the deposited data

Results flagged for a closer look

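The Irf4 difference between FxE HA and FxE Ctrl cells minus that between GFPpos and GFPneg cells was -2.03 on the log2 scale (limma adjusted p = 6.41e-05), which is why it is listed here: the same drug was followed by different Irf4 levels in 2 cell preparations. The GFPpos cells were sorted for a Rag2 reporter and the FxE HA cells were not, and within the GFPpos and GFPneg experiment drug and gate cannot be told apart. Among groups of 4 to 6 arrays, no array of Irf4, Prdm1 or Xbp1 stood apart from the others of its group. Groups of 3 arrays were not checked in this way. They include FxE, where Prdm1 was 8.4 units on 1 array and 82.0 and 120 units on the others.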

How the results depend on the processing

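Over all alternatives, 354 values of the 3 genes kept their direction and their side of the threshold, 50 lost their call, 4 gained one and 11 changed sign. All sign changes were in values that were not called. The Irf4 and Prdm1 calls for Cre-Mlo against Ctrl-Mhi held under every alternative, leaving out each array included. For Cre-Mlo against Cre-Mhi, Prdm1 lost its call under the methods' t-test after adjustment (log2 difference 1.71, adjusted p = 0.0626). With the replicate block, Irf4 lost its call in FxD against FxE (1.83), B6-Mneg against Ctrl-Mhi (0.91), Cre-Mlo against B6-Mneg (0.56) and GFPpos against GFPneg (2.03), Prdm1 in Cre-Mlo against B6-Mneg (1.26) and FxE HA against FxE Ctrl (1.89), and Xbp1 in Cre-Mlo against B6-Mneg (-0.79) and GFPpos against GFPneg (-1.16). In those comparisons some same-numbered arrays did not deviate together (lowest pair correlations -0.261 to -0.0445). The highest pair correlations were -0.0242 in B6-Mneg against Ctrl-Mhi to 0.399 in FxE HA against FxE Ctrl. Whether the numbers pair these samples is not given in the sources used here. The block changed no call in the paired comparisons. For Cre-Mlo against Cre-Mhi, the limma adjusted p with the block was 0.00182 for Irf4 and 0.00486 for Prdm1. That block also held the same-numbered Ctrl-Mhi arrays, which did not all deviate together with Cre-Mhi (r = -0.348 to 0.104). It was therefore not a test of the Cre-Mlo and Cre-Mhi pairs alone. Under the methods' t-test after adjustment, calls were also lost for Irf4 in FxD against FxE (1.83) and GFPpos against GFPneg (2.03), for Prdm1 in Cre-Mlo against B6-Mneg (1.22) and FxE HA against FxE Ctrl (1.86), and for Xbp1 in Cre-Mlo against B6-Mneg (-0.77) and GFPpos against GFPneg (-1.18). Xbp1 in B6-Mneg against Ctrl-Mhi passed with a floor of 50 units or the dim filter (0.62 in both), and Prdm1 in GFPpos against GFPneg with quantile normalization (2.71) or the dim filter (2.63).

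Leaving out 1 array gave Irf4 log2 differences of 1.73 to 1.92 in FxD against FxE, 0.87 to 1.02 in B6-Mneg against Ctrl-Mhi, 0.55 to 0.69 in Cre-Mlo against B6-Mneg, 1.94 to 2.11 in GFPpos against GFPneg and -0.18 to 0.00534 in FxE HA against FxE Ctrl. Prdm1 had 0.95 to 1.5 in Cre-Mlo against B6-Mneg. Xbp1 had -0.89 to -0.64 in Cre-Mlo against B6-Mneg, -1.30 to -1.05 in GFPpos against GFPneg, -0.22 to 0.0182 in Cre-Mlo against Cre-Mhi, -0.12 to 0.0475 in Cre-Mhi against Ctrl-Mhi, -0.36 to 0.11 in FxD against FxE and -0.33 to 0.0664 in FxE HA against FxE Ctrl. For FxE HA against FxE Ctrl, Xbp1 was 0.38 with the replicate block, 0.0863 by the methods' t-test and 0.32 at 24 h alone, and at 48 h alone Irf4 was 0.18 and Prdm1 1.57 (adjusted p = 0.376, with 4 arrays). The cause of these changes was not tested. The percent of probe sets called ranged, over the alternatives, from 3.89 to 14.4 for Cre-Mlo against Ctrl-Mhi, 2.97 to 10.6 for Cre-Mlo against Cre-Mhi, 0 to 7.28 for FxD against FxE, 1.37 to 25.5 for B6-Mneg against Ctrl-Mhi, 2.65 to 30.7 for Cre-Mlo against B6-Mneg, 0 to 10.3 for GFPpos against GFPneg, 0 to 7.89 for FxE HA against FxE Ctrl and 0 to 0.732 for HEL 48h against Ctrl 48h.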
